A study of Homo sapiens with 16 samples.

Results

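Small nucleolar RNAs (snoRNAs) and small Cajal body RNAs (scaRNAs) were described here on arrays of L1236, an established Hodgkin lymphoma cell line. A probe set, the group of array probes summarised to a single value, was a member when its only gene symbol started with SNORD, SNORA or SCARNA, and the SNORD115 and SNORD116 copies were left out. This gave 158 of the 19460 gene-level probe sets with 1 symbol, for 152 genes: 75 of box C/D (SNORD), 64 of box H/ACA (SNORA, 61 genes) and 19 of scaRNAs (SCARNA, 16 genes). The symbols of the platform table set the classes, and 3 members, SNORD13P1, SNORD13P2 and SNORD13P3, are annotated as pseudogenes of SNORD13.

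Box C/D snoRNAs pair with ribosomal RNA and guide ribose methylation by fibrillarin, while box H/ACA snoRNAs guide pseudouridylation by dyskerin. The scaRNAs carry the same boxes and guide the same modifications of spliceosomal RNAs in Cajal bodies. Most human snoRNAs are cut out of introns of a host gene, often a ribosomal protein gene, a translation factor gene or a long non-coding RNA gene such as GAS5 or the SNHG genes. Many of these hosts are known to start transcription in a run of pyrimidines, the terminal oligopyrimidine motif of messengers under growth control.

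All cells carried a retrovirus with a doxycycline-inducible short hairpin RNA against RELB, a subunit of the alternative NF-kB pathway, and grew in RPMI with 20% fetal bovine serum. Infected cells were either left uninduced or given doxycycline. Each group had 4 arrays, and the 16 samples are these 8 arrays summarised at gene and at exon level. Each title holds a code, B_1 or B_4, and ends in 1 or 4; the labels explain neither, and the 4 combinations give 4 pairs of an uninduced and an induced array. Dose, time, clone and separate cultures are not stated, and p-values therefore reflect the spread between arrays, which may be technical. Values below are in the pair order B_1 with 1, B_1 with 4, B_4 with 1 and B_4 with 4.

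RELB, the hairpin's target, averaged 7.40 ± 0.13 (SD, n = 4) on arrays labelled uninduced and 7.25 ± 0.11 on arrays labelled induced, a log2 difference of -0.15 ± 0.09 (SE). It did not pass the test (limma, Benjamini-Hochberg adjusted p = 0.212; exact two-sided permutation p = 0.171, with 0.0286 the smallest possible). The induction labels are therefore used as given and not as evidence of depletion. Column medians ran from 5.79 to 5.88. Of 9 markers typical of the tumour cells of Hodgkin lymphoma, 3 were higher and 5 lower on arrays labelled induced. Their log2 differences ran from -5.22 for ID2 to 4.70 for TNFRSF8. Of 4 tested B cell markers 3 were higher, CD79A by 5.31, CD22 by 4.11 and PAX5 by 2.76 log2 units, and CD79B did not pass. Group means of T cell markers stayed between 4.20 and 5.02, and 2 of 5 tested myeloid and 1 of 4 tested fibroblast markers passed the test. Of all tested probe sets, 55.7% passed. The part of these marker differences in the snoRNA results was not tested, and in bulk RNA fewer cells of a type and less RNA per cell cannot be told apart. All titles name L1236, and whether the 2 groups hold the same cells was not tested.

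The deposited files used here hold no snoRNA sequence, so the start sites of 6 host genes are shown, 4 whose snoRNAs rose and 2 (RPL13A and SNHG17) with snoRNAs that fell. Each line gives the 50 bases from 30 before to 20 after the annotated start, on the transcribed strand, from RefSeq promoter windows of GRCh38.p14. Capitals mark the longest run of C and T within the stretch from 10 bases before to 20 after the start; in SNHG17 a second run of the same length follows and only the first is marked.
SNHG5: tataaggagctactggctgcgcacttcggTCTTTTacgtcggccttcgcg
SNHG19: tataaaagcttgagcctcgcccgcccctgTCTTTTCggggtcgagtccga
RPL7A: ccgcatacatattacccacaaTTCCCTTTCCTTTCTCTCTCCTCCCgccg
RPS3: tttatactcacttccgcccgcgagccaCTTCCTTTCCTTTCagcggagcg
RPL13A: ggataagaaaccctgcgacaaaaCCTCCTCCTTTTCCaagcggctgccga
SNHG17: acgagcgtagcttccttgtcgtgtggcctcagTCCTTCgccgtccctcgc
The windows are chr6:85678714-85678763 (minus strand), chr16:2155339-2155388 (minus), chr9:133348188-133348237 (plus), chr11:75399488-75399537 (plus), chr19:49487578-49487627 (plus) and chr20:38435309-38435358 (minus).

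The longest marked runs were 25 bases in RPL7A and 14 in RPS3 and RPL13A, against 6 in SNHG5, 7 in SNHG19 and 6 in SNHG17. A run of at least 8 C or T bases, searched on the transcribed strand only, lay in this stretch in 12.6% of 27305 genes with a window and in 23 of 74 host genes with one (31.1%). Among ribosomal protein hosts it was found in 9 of 11 (81.8%), among other protein-coding hosts in 12 of 50 (24.0%) and among long non-coding hosts in 2 of 13 (15.4%). RPL7A and RPS3, whose member snoRNAs rose, have such a run, and so has RPL13A, none of whose member snoRNAs rose. Whether a run goes with the label difference was not tested. A match describes letters in a window and is not evidence of a working motif.

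A probe set was tested when its mean over the 8 arrays reached 4.78, the 25th percentile; 143 members passed and 15 did not. On arrays labelled induced, 67 of the 143 tested members were higher and 21 lower at an adjusted p under 0.05 in limma. The call rate of 61.5% compares with 55.7% of all 14595 tested probe sets, a background so broad that a call by itself says little. The direction differed from the background: 46.9% of tested members were called higher and 14.7% lower, against 27.3% higher and 28.4% lower among all probe sets. The values of the 2 groups did not overlap for 71 members (49.7%), a share near the 49.9% of all tested probe sets. The median difference of tested members was 0.23 log2 units, against 0.02 for all tested probe sets.

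Without the filter, 69 of all 158 members were higher (43.7%) and 20 lower (12.7%), against 21.9% and 22.9% of all 19460 probe sets. Among tested members only SNORD51, named for this after its values were seen, had the mean of 1 group below the filter level; it was called higher. The 15 members below the filter included all 6 of the SNORD113 and SNORD114 copies, which lie in the long non-coding gene MEG8 of an imprinted cluster. Their label differences ran from -0.14 to 0.17. SNORA70F, also below the filter and named after its values were seen, had values of 3.87, 3.96, 3.62 and 3.97 on arrays labelled uninduced and 5.90, 5.90, 5.15 and 5.41 on arrays labelled induced. These do not overlap, and its host COBLL1 rose from a mean of 3.73 to 8.74.

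Box C/D members carried most of the rises. Of 66 tested, 37 rose (56.1%), 5 fell (7.6%) and 24 did not pass. Their median difference was 0.42. Among 60 tested box H/ACA members there were 28 rises (46.7%) and 10 falls (16.7%), 22 members did not pass, and the median was 0.19. The 17 tested scaRNAs gave 2 rises (11.8%) and 6 falls (35.3%), 9 did not pass, and the median was -0.10. All tested probe sets gave 27.3% higher and 28.4% lower. Calls of at least 2-fold were made for 14 box C/D probe sets, all higher, and for 3 higher and 3 lower box H/ACA probe sets; the 3 higher include both probe sets of SNORA10, which hold identical values. Among tested scaRNAs none reached 2-fold. Of all tested probe sets, 6.86% were called at least 2-fold higher and 9.65% at least 2-fold lower. Over all members, the 15 dim ones included, the medians were 0.32, 0.19 and -0.10.

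The order of the classes was the same in each pair of arrays, with pairs matched by title only. The median difference of box C/D members was 0.67, 0.39, 0.29 and 0.33 in the 4 pairs, that of box H/ACA members 0.28, 0.21, 0.15 and 0.18, and that of scaRNAs 0.01, -0.22, -0.09 and -0.13. The box C/D median exceeded the box H/ACA median in all 4 pairs and was largest in the pair B_1 with 1. The per-array median of box C/D members averaged 7.21 ± 0.18 (SD, n = 4) on arrays labelled uninduced and 7.87 ± 0.06 on arrays labelled induced. For box H/ACA members the same figures were 6.78 ± 0.07 and 7.17 ± 0.09, and for scaRNAs 7.65 ± 0.11 and 7.15 ± 0.16. These medians did not overlap between the groups in any class. The median of all tested probe sets went from 7.13 ± 0.03 to 7.08 ± 0.03. Per-array means of the 17 tested scaRNAs did overlap, unlike those of the other classes. The induced array of B_1 with 1 averaged 7.68, and the uninduced arrays with B_4 averaged 7.63 and 7.62.

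The classes also differ in length, with median annotated lengths of 75, 134 and 278 bases among tested members. Across the 143 tested members, the label difference and the annotated length had Pearson's r = -0.31 (Spearman's rho = -0.28). Within box C/D (n = 66) r was -0.07, within box H/ACA (n = 60) 0.13 and within the scaRNAs (n = 17) -0.38. Members share arrays and many share a host, and no p is attached. With the mean level, r was -0.01 over all 143, 0.02 within box C/D, -0.07 within box H/ACA and -0.45 within the scaRNAs.

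**Figure D1:**
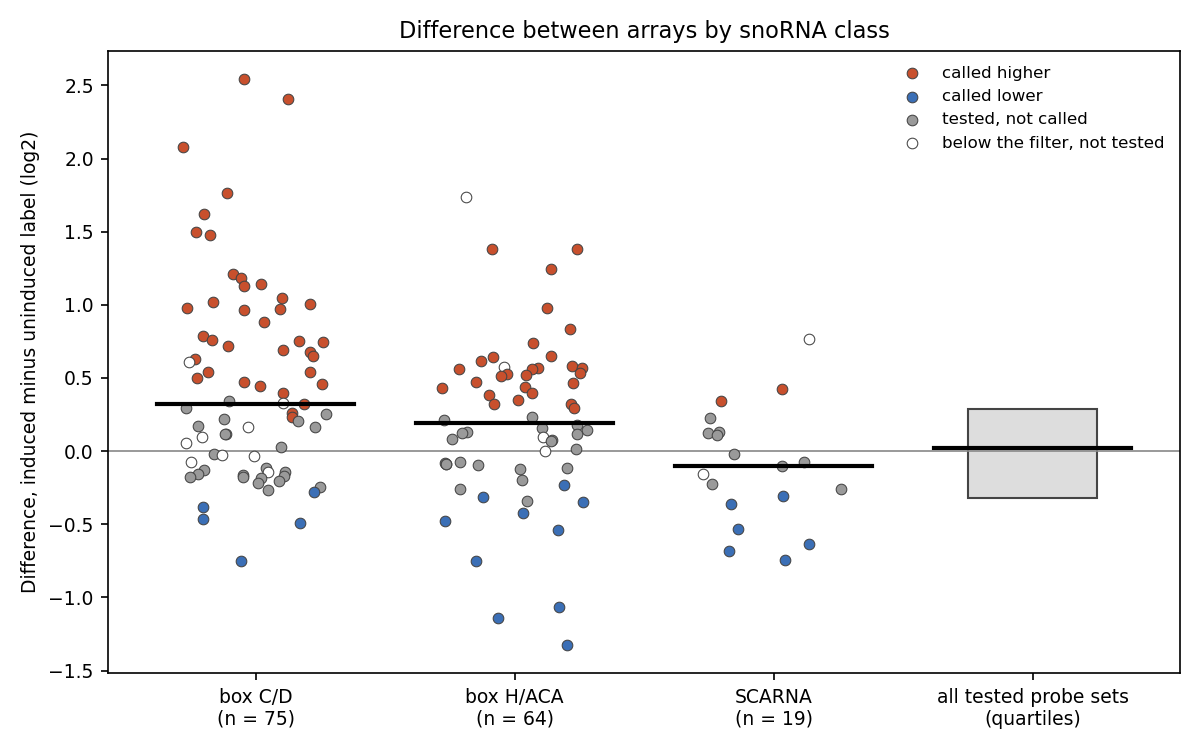
Log2 difference between arrays labelled induced and uninduced for each of the 158 members by class, coloured by call, with the class median as a black bar and the quartiles of all 14595 tested probe sets as a grey box. Box C/D members spread upwards to 2.54, while most scaRNAs lie at or below 0.

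The 6 largest box C/D rises came from 5 places in the genome. SNORD50B and SNORD50A, both in introns of SNHG5, guide methylation of the large ribosomal RNA. SNORD50B read 5.32, 4.63, 5.20 and 5.07 on arrays labelled uninduced and 7.81, 7.88, 7.34 and 7.36 on arrays labelled induced. The difference was 2.54 ± 0.16 (SE), or 5.83-fold (adjusted p = 2.05e-07). SNORD50A read 6.21, 6.33, 6.47 and 6.34 against 8.70, 8.92, 8.66 and 8.69, a difference of 2.41 ± 0.09 (adjusted p = 5.32e-09). Every array labelled induced exceeded every array labelled uninduced by over 2 log2 units for both. SNHG5 itself has no probe set with a single symbol, so the host transcript was not compared.

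SNORD49A, in the long non-coding host SNHG29, read 6.12, 6.04, 6.23 and 6.15 against 8.37, 8.06, 8.30 and 8.12. It was higher by 2.08 ± 0.08, or 4.22-fold (adjusted p = 5.86e-09), with a gap between the groups far wider than either group. SNHG29 rose by 0.87 ± 0.13, less than its snoRNA by 1.21 log2 units (95% confidence interval 0.68 to 1.73). SNORD60, in SNHG19, read 6.08, 6.10, 6.17 and 6.29 against 7.51, 7.75, 7.60 and 7.77, a 2.82-fold rise (adjusted p = 6.24e-08) with no overlap.

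SNORD36B, in an intron of the ribosomal protein gene RPL7A, read 6.44, 6.35, 6.50 and 6.46 against 8.20, 8.16, 8.41 and 8.04. It rose by 1.76 ± 0.09, or 3.39-fold (adjusted p = 3.18e-08), and no values overlapped. The probe set that names RPL7A rose by 1.21 ± 0.08, but its identifier is numbered among genes of another chromosome; whether it reads a copy of RPL7A elsewhere was not tested.

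SNORD13 differs from these in having no annotated gene around it; it is transcribed from its own promoter and takes part in acetylation of the small ribosomal RNA. It read 9.23, 9.10, 9.21 and 8.90 on arrays labelled uninduced and 10.68, 10.38, 10.79 and 11.08 on arrays labelled induced, a rise of 1.62 ± 0.13 (adjusted p = 1.96e-06). Its pseudogene SNORD13P3, named after its values were seen, rose by 1.48 ± 0.18, while SNORD13P2 fell by 0.28 (SE 0.08, adjusted p = 0.0115). Probes on near-identical copies can bind RNA of each other, so SNORD13 and SNORD13P3 cannot be told apart here.

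The largest rise of a tested box H/ACA member was that of SNORA10, in the ribosomal protein gene RPS2. It read 7.46, 7.60, 7.78 and 7.99 against 9.05, 9.16, 9.18 and 8.95, a rise of 1.38 ± 0.11, or 2.60-fold (adjusted p = 1.51e-06). SNORA10 has 2 member probe sets with identical values on every array, one of them numbered among genes of another chromosome, so they are a single measurement. RPS2, read at the probe set with the highest mean of its 3, rose by only 0.27 ± 0.08. SNORA10 exceeded it by 1.11 (95% confidence interval 0.68 to 1.54).

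SNORA37, in MBD2, a gene for a methyl-CpG-binding protein, read 7.92, 7.78, 7.93 and 7.93 against 9.32, 9.14, 8.93 and 9.15. It rose by 1.25 ± 0.10 (adjusted p = 1.47e-06), and MBD2 rose by 0.95 ± 0.08. SNORA29, in the chaperonin gene TCP1, rose by 0.98 ± 0.14 with its host at 0.41 ± 0.09. Its values on arrays labelled uninduced were 5.38 and 5.41 with B_1 and 6.03 and 5.86 with B_4, and 6.89, 6.42, 6.94 and 6.35 on arrays labelled induced. SNORA75, in the nucleolin gene NCL, rose by 0.83 ± 0.10 with its host at 0.29 ± 0.09.

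The falls were led by the SNORA71 family, whose members lie in the long non-coding gene SNHG17. SNORA71A read 9.18, 9.11, 9.17 and 9.16 on arrays labelled uninduced and 7.96, 7.70, 7.96 and 7.71 on arrays labelled induced, a difference of -1.32 ± 0.08 (2.50-fold lower, adjusted p = 2.08e-07). SNORA71C lay between 9.71 and 10.01 on arrays labelled uninduced and read 8.98, 8.61, 8.86 and 8.79 on arrays labelled induced, a difference of -1.07 ± 0.10. SNORA71D differed by -0.75 ± 0.10; a second annotated gene contains it besides SNHG17. All 3 were separate between the groups, and SNHG17 itself differed by -1.06 ± 0.10. These copies are near-identical, so their values are not independent.

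SNORA22, which lies inside 2 annotated genes, read 9.42, 9.10, 8.65 and 8.81 against 8.07, 7.61, 7.59 and 8.16, a difference of -1.14 ± 0.17 (adjusted p = 0.000196). No box C/D member fell by as much. The largest box C/D fall was that of SNORD63, in HSPA9, a gene for a mitochondrial chaperone. It read 5.84, 5.98, 5.59 and 5.44 against 5.21, 4.72, 5.07 and 4.85, a difference of -0.75 ± 0.12 (adjusted p = 0.000293), and HSPA9 differed by -0.42 ± 0.11. SNORD117 differed by -0.47 ± 0.12 (adjusted p = 0.00724).

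Among the scaRNAs, SCARNA17 fell at both of its probe sets, in the long non-coding host SNHG22. The first read 11.12, 11.15, 10.88 and 10.91 on arrays labelled uninduced and 10.37, 10.20, 10.40 and 10.11 on arrays labelled induced, a difference of -0.74 ± 0.09 (adjusted p = 4.94e-05). The second differed by -0.63 ± 0.09. SCARNA8, in HAUS6, read 7.80, 7.68, 7.74 and 7.85 against 7.15, 7.14, 6.97 and 7.08, a difference of -0.69 ± 0.09 (adjusted p = 4.92e-05). Its host, an augmin subunit gene, differed by -0.80 ± 0.09. No value of the 2 groups overlapped for either scaRNA.

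The 2 scaRNAs that rose did so by less. SCARNA16 read 7.89, 7.80, 7.77 and 7.74 against 8.20, 8.08, 8.20 and 8.09, a rise of 0.34 ± 0.08 (adjusted p = 0.00318). It is shown because its annotated span is the only one among the members that holds a listed microRNA, with the seeds (bases 2 to 8) in capitals and the sequences from RefSeq, GRCh38.p14.
hsa-miR-6516-5p: uUUGCAGUaacaggugugagca
hsa-miR-6516-3p: aUCAUGUAugauacugcaaaca
They lie at chr17:77089428-77089449 and chr17:77089469-77089490 on the plus strand. SCARNA9, which guides modification of a spliceosomal RNA, rose by 0.43 ± 0.11 at one probe set (adjusted p = 0.00596) but read -0.10 ± 0.12 at its other (adjusted p = 0.531), so its probe sets disagree. The rise did not pass without covariates (adjusted p = 0.0666).

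**Figure D2:**
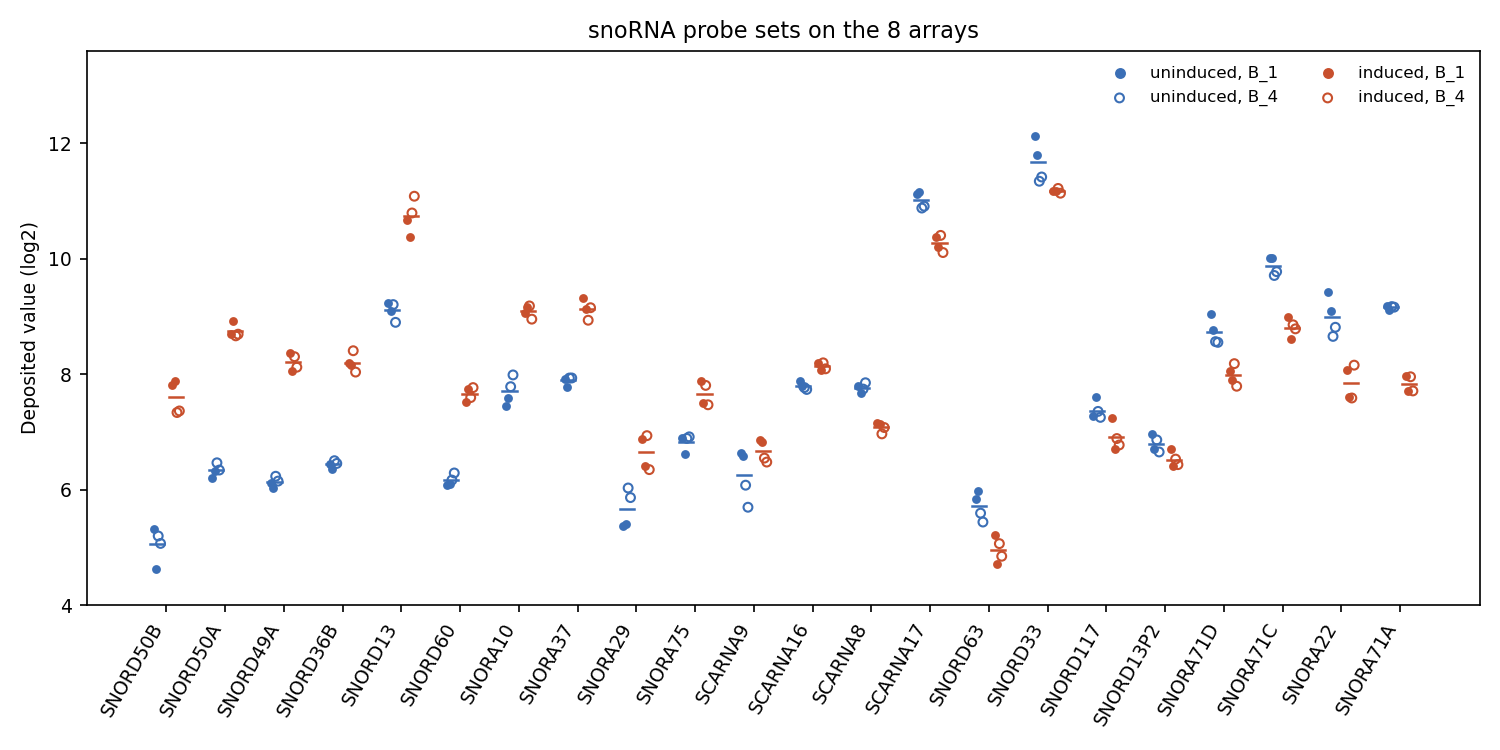
Deposited log2 values of 22 named snoRNAs and scaRNAs on the 8 arrays, blue for the label uninduced and red for induced, filled for B_1 and open for B_4, with group means as short lines. The rises are on the left and the falls on the right, and SCARNA9 and SNORD13P2 are the ones whose groups overlap.

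Host genes were taken as the single annotated gene whose span contains the snoRNA, on either strand, since the annotation used here gives none. Members in ribosomal protein genes rose most often: 21 of 31 tested were higher (67.7%) and 1 lower, with a median difference of 0.52. In other protein-coding genes 26 of 69 were higher (37.7%) and 11 lower (15.9%), with a median of 0.12. All tested probe sets gave 27.3% higher and 28.4% lower. In long non-coding genes 13 of 25 were higher (52%) and 5 lower (20%). Of 19 box C/D members there 13 were higher and none lower, while of 4 box H/ACA members none was higher and 3 were lower. No long non-coding host held tested members of both classes. The falls include the near-identical SNORA71A and SNORA71C of SNHG17. Class and host therefore cannot be told apart there. In ribosomal protein genes 12 of 19 box C/D members were higher (median 0.50), as were 9 of 12 box H/ACA members (median 0.52).

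GAS5, a growth-arrest-associated long non-coding gene, held the most members, 7 box C/D snoRNAs, of which 6 were higher and none lower (median 0.69). SNORD77 rose by 1.21 ± 0.15 and SNORD75 by 1.14 ± 0.14. SNORD74 rose by 0.75 ± 0.13, SNORD81 by 0.69 ± 0.12, SNORD79 by 0.68 ± 0.10 and SNORD78 by 0.54 ± 0.10. SNORD44 differed by 0.29 ± 0.13 and did not pass (adjusted p = 0.0888); it passed without replicate 4 of either group (adjusted p = 0.0486 and 0.00500). Array values are given for SNORD75 and SNORD74. For neither did the interaction of induction label and B code pass in the main fit. SNORD75 read 8.36 and 8.30 with B_1 and 9.13 and 9.04 with B_4 on arrays labelled uninduced, and 9.76, 9.91, 9.93 and 9.79 on arrays labelled induced. The arrays labelled uninduced thus split by B code and the arrays labelled induced did not. The same holds for SNORD74, at 9.38, 9.24, 10.04 and 10.01 against 10.34, 10.46, 10.44 and 10.45. The median label difference of the 7 was 0.97 with B_1 and 0.42 with B_4.

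The ribosomal protein gene RPL13A holds SNORD32A, SNORD33, SNORD34 and SNORD35A, which are known for a part in metabolic stress. None of the 4 rose. SNORD33 read 12.13, 11.79, 11.34 and 11.41 against 11.18, 11.17, 11.22 and 11.13, a difference of -0.49 ± 0.13 (adjusted p = 0.00701). SNORD32A, SNORD34 and SNORD35A differed by -0.19, -0.20 and -0.18 and did not pass; SNORD34 passed without uninduced replicate 1 (adjusted p = 0.0365), and SNORD32A and SNORD35A passed with quantile normalisation (adjusted p = 0.0392 and 0.0335).

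**Figure D3:**
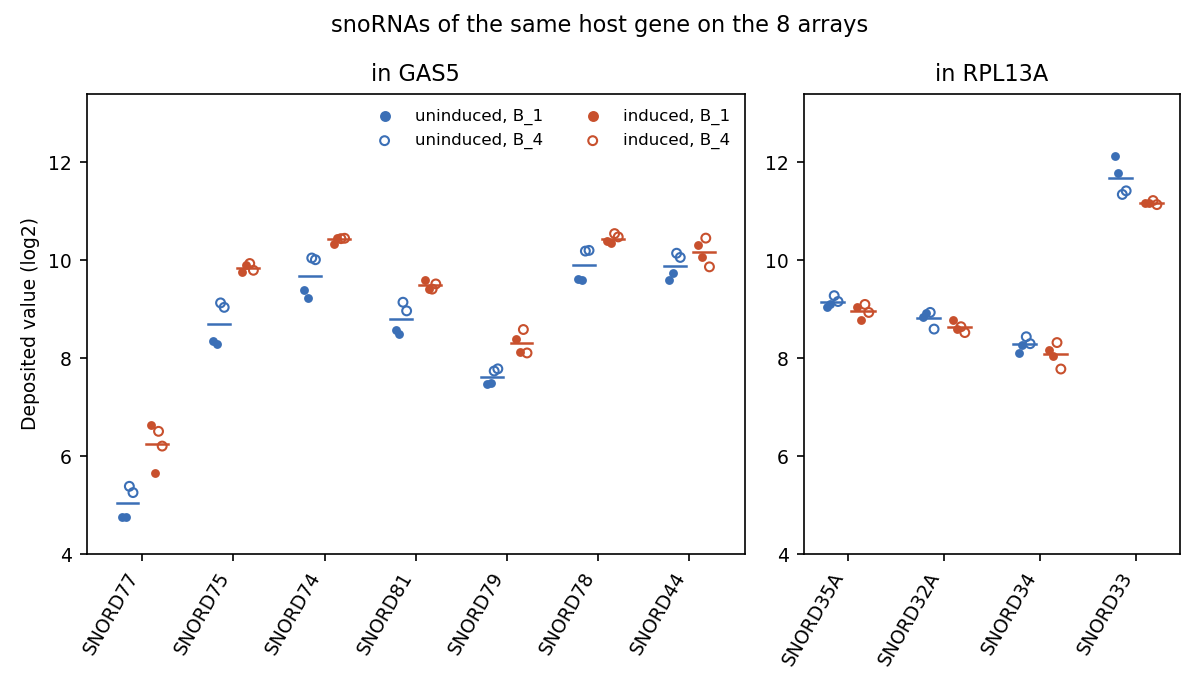
Deposited log2 values on the 8 arrays for the snoRNAs of GAS5 and RPL13A, coloured and filled by label and B code, with group means as short lines. In GAS5 the arrays labelled uninduced with B_4 lie above those with B_1 for all 7 snoRNAs.

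Of 135 member symbols with a single containing gene, 88 had a host with a single-symbol probe set and 78 pairs (59 hosts) had both sides tested. The other 47, among them those in GAS5, SNHG5 and SNHG1, could not be paired. snoRNA and host were both higher in 23 pairs and both lower in 7. In 12 pairs the snoRNA was higher and the host did not pass, in 0 pairs it was higher and the host lower, and in 2 pairs it was lower and the host higher. Across the 78 pairs the 2 differences had Pearson's r = 0.59 and Spearman's rho = 0.62, with r = 0.83 in the 29 box C/D pairs and 0.51 in the 39 box H/ACA pairs. These points share arrays and some share hosts, and a probe set over an intronic snoRNA can also bind the unspliced host transcript. The 2 sources cannot be told apart in these values.

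The snoRNA changed more upwards than its host in 24 pairs and less in 13, by the 95% confidence interval of the difference between them, and the interval held 0 in 41. In the 4 pairs of arrays the median excess of snoRNA over host was 0.35, 0.23, 0.03 and 0.02. It was thus larger with B_1 than with B_4. The 16 pairs with a ribosomal protein host came from 10 hosts. The snoRNA was higher in 14 of these pairs and the host in 12, with a shared host counted once per pair. Of all tested probe sets, 27.3% were higher. In these 16 pairs the snoRNA exceeded its host by a median of 0.39. SNORD15A and SNORD15B, chosen after their values were seen, rose by 1.04 ± 0.12 and 1.02 ± 0.08 in RPS3, whose own rise was 0.46 ± 0.08. The probe sets of 6 hosts (RPL7A, RPL12, RPL23A, RPL27A, RAP1B and EIF1AX) are numbered among genes of other chromosomes. Without their 9 pairs, 20 pairs were both higher and 7 both lower, r was 0.57, and among the 9 remaining ribosomal protein pairs r was -0.01 with a median excess of 0.39.

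The pairs farthest apart, chosen after their values were seen, had hosts that passed the test and snoRNAs that did not, or that moved the other way. RAB30, a small GTPase gene, fell by 2.66 log2 units while SNORA70E in it read 5.76, 5.94, 5.76 and 5.55 against 5.55, 5.98, 5.38 and 5.79, which overlap. ODC1, the polyamine synthesis gene, fell by 1.38 while SNORA80B differed by -0.09 ± 0.09. PRRC2A rose by 1.01 ± 0.08 while SNORA38 read 7.39, 7.62, 7.64 and 7.68 against 7.37, 7.13, 7.25 and 7.19, a fall of 0.35 (SE 0.10). SNORA5C and its host TBRG4 were the other pair of opposite calls, at -0.32 ± 0.08 and 0.33 ± 0.09.

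**Figure D4:**
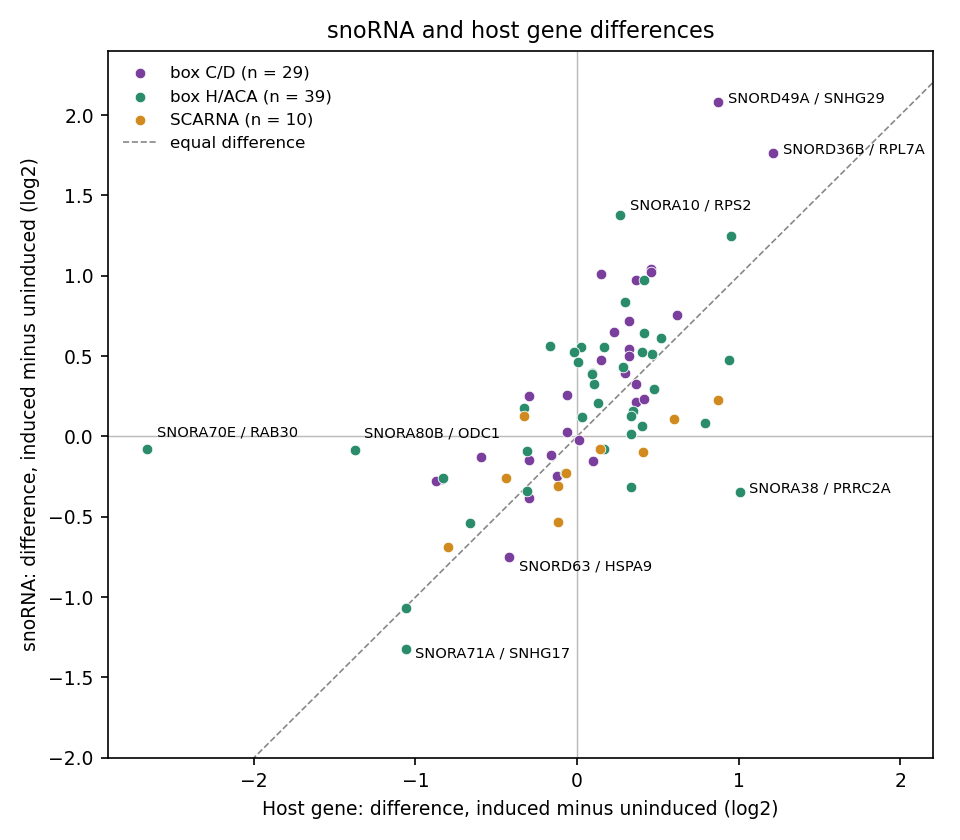
Log2 difference between arrays labelled induced and uninduced for the host gene (horizontal) and its snoRNA (vertical) in 78 pairs, coloured by class, with a dashed line of equal difference. Most points lie in the quadrants of shared direction, and SNORA38, SNORA70E and SNORA80B lie far from the line.

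The proteins that act on snoRNAs were mixed. Counts of each list may be read beside the shares of all tested probe sets, 27.3% higher and 28.4% lower. Of the box C/D core proteins with a probe set, NOP58 differed by -0.39 ± 0.08 (adjusted p = 0.00159) and the methyltransferase fibrillarin (FBL) by 0.10 ± 0.10, which did not pass. Of the box H/ACA core, NHP2 rose by 0.92 ± 0.10 and NOP10 by 0.88 ± 0.10, GAR1 fell by 0.48 (SE 0.09), and the pseudouridine synthase DKC1 differed by -0.06 ± 0.10. The NHP2 and C1D probe sets are numbered among genes of other chromosomes. Of 14 assembly, cap and trafficking factors 6 were higher and 5 lower. NOPCHAP1, a chaperone of box C/D assembly, rose by 2.22 ± 0.12, while AAR2 fell by 1.09 (SE 0.08), PHAX, the export adaptor that takes precursors to Cajal bodies, by 0.97 (SE 0.10) and RUVBL2 by 0.89 (SE 0.11).

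Of 9 Cajal body and nucleolar proteins 5 were higher and 3 lower. WRAP53, which brings scaRNAs to Cajal bodies, rose by 0.83 ± 0.08 and NOLC1 by 0.53 ± 0.09, while DDX20 fell by 0.52 (SE 0.09). GEMIN2 rose by 0.53 ± 0.10. Of 19 end-processing factors 4 were higher and 7 lower: the exosome subunits EXOSC10 and EXOSC9 rose by 0.83 ± 0.08 and 0.73 ± 0.09, TOE1 rose by 0.54 ± 0.10, and C1D fell by 0.64 (SE 0.09). Of 9 tested other small non-coding RNAs, 1 was higher and 2 lower. RNU4ATAC, of the minor spliceosome, fell by 0.86 (SE 0.09), RNU4-1 rose by 0.49 ± 0.08, RNU11 fell by 0.28 (SE 0.09), and RPPH1 differed by -0.26 ± 0.11 and did not pass. These counts, with 1 of 9 higher in the last list, may be read beside those of all tested probe sets. Of these, 27.3% were higher and 28.4% lower.

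B code alone gave no calls, which does not show that differences were few. No member and no other probe set passed an adjusted p under 0.05 in limma (0% of 14595), and 23 of 143 members had an unadjusted p under 0.05 (16.1%), against 13.8% of all tested probe sets. The 3 lowest were SCARNA9, at -0.53 ± 0.11 with B_4 relative to B_1 (unadjusted p = 0.000583 in limma, adjusted p = 0.201), SCARNA10 at -0.42 ± 0.10 (adjusted p = 0.228) and SNORD14C at 0.65 ± 0.15 (adjusted p = 0.228). SCARNA10, a guide with both kinds of box, read 8.05 and 8.14 with B_1 and 7.59 and 7.54 with B_4 on arrays labelled uninduced. On arrays labelled induced it reached 8.19 with B_1 and read 7.56 and 7.99 with B_4, so its 3 lowest values lie with B_4.

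The label difference varied with B code for some box C/D snoRNAs. The interaction of induction label and B code passed an adjusted p under 0.05 for 2 members of 143, against 0.267% of all tested probe sets, and 29 members (20.3%) had an unadjusted p under 0.05, against 11.9%. Of these 29, 18 were box C/D. The median label difference of tested box C/D members was 0.50 with B_1 and 0.22 with B_4, and that of box H/ACA members 0.25 and 0.15.

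SNORD14E, in the chaperone gene HSPA8, is a copy of a snoRNA needed for cleavage of the ribosomal RNA precursor. It read 5.76 and 5.84 with B_1 and 7.71 and 7.57 with B_4 on arrays labelled uninduced, and 7.58, 7.83, 7.59 and 7.91 on arrays labelled induced. The label difference was 1.91 with B_1 and 0.11 with B_4, and the interaction -1.80 ± 0.19 (limma, adjusted p = 0.00826), a call lost without uninduced replicate 1 or 2 (adjusted p = 0.105 and 0.103). Only the 2 arrays labelled uninduced with B_1 were low. Over both B codes SNORD14E rose by 1.01 ± 0.30 (adjusted p = 0.0138), a call lost without any one of the 4 arrays with B_1 (adjusted p 0.0599 to 0.0667). SNORD14C of the same host showed 0.85 with B_1 and 0.10 with B_4 and lost its rise in the same 4 cases (adjusted p 0.0603 to 0.101), while HSPA8 differed by 0.15 ± 0.09 and did not pass.

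SNORD30, in the long non-coding gene SNHG1, read 7.80, 7.88, 8.61 and 8.76 on arrays labelled uninduced and 9.55, 9.53, 9.34 and 9.36 on arrays labelled induced. The label difference was 1.70 with B_1 and 0.66 with B_4, and the interaction was -1.03 ± 0.16 (adjusted p = 0.0411). This call was lost whichever 1 of the 8 arrays was left out (adjusted p 0.0640 to 0.271). SNORD75 of GAS5 came next, at -0.72 ± 0.17, and did not pass (adjusted p = 0.119). For all 3 the arrays labelled uninduced with B_4 exceeded those with B_1, while the arrays labelled induced lay close together.

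**Figure D5:**
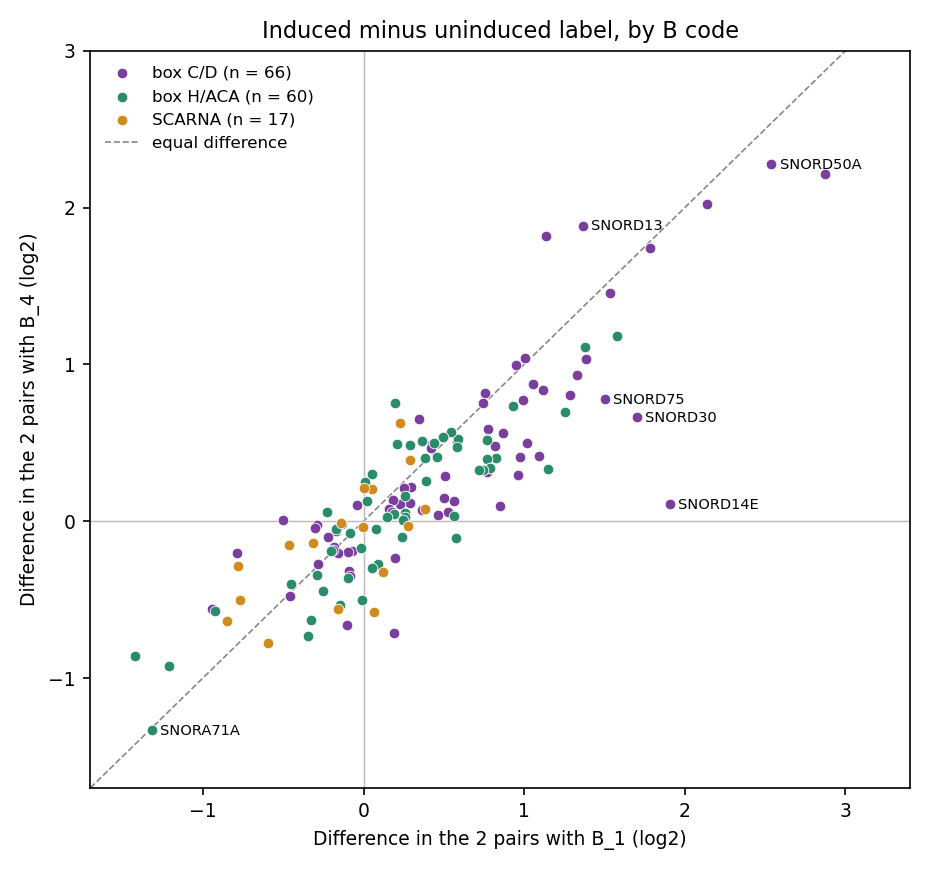
Log2 difference between arrays labelled induced and uninduced in the pairs with B_1 (horizontal) and with B_4 (vertical) for the 143 tested members, coloured by class, with a dashed line of equal difference. SNORD14E lies farthest below the line, at 1.91 with B_1 and 0.11 with B_4, followed by SNORD30.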

How the data were processed

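The deposited values are log2 signals per probe set: RNA was extracted with TRIZOL and labelled with an Affymetrix whole-transcript kit per the labels' protocols, and RMA and Partek are named per the submitters' processing notes. No source states the log base; 2 is what RMA normally gives. RMA equalises the arrays' distributions, so a global shift would be removed. Genome build and tool versions: not given in the sources used here. Exon-level values of all 158 members were identical to the gene-level ones at tolerance 0 and were not counted as replicates.

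Limma 3.58.1 (R 4.3.3) fitted induction label, B code and last number to the 8 arrays for 14595 probe sets with 1 symbol and a mean of 4.78 or more, with Benjamini-Hochberg adjustment; the interaction had its own fit. The fit was also run on simulated data with far fewer changed probe sets than were called here. That run checks the code and not the calls. The planned rule of a host on the same strand could not be used, so spans on either strand were used and snoRNAs inside several genes were not paired. Intervals of snoRNA minus host used the same model on the difference of values. Where a snoRNA or host symbol had several probe sets, only the one with the highest mean was paired. SCARNA9 was thus paired through its probe set that did not rise. A probe set was called numbered elsewhere when fewer than 5 of the 10 nearest identifiers named genes of its chromosome.

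The members and lists were chosen with earlier results of these data known. Named genes were the largest rises and falls past the threshold with the same sign in 4 pairs (6 each way for box C/D, 4 for box H/ACA, 2 for scaRNAs), the 3 lowest p for B code and interaction, their hosts, the snoRNAs of the 4 hosts with most members, and the 4 lowest p of each protein list. MEG8's copies were below the filter. The snoRNAs of 1 of these hosts are not reported here. Figures used matplotlib 3.10.9.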

Additional observations from a re-analysis of the deposited data

Results flagged for a closer look

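In SNORD14E and SNORD30 the label difference varied with B code by a test of the interaction itself, at -1.80 and -1.03 log2 units. With 1 array left out, SNORD14E lost its call in 2 of 8 cases and SNORD30 in all 8. Among 62 sets of 4 arrays examined, 3 held an array far from the others, near the 1 in 20 that chance gives. SNORD50A read 8.92 on the induced array of pair 2, where the other 3 lay between 8.66 and 8.70. SNORA37 read 7.78 on the uninduced array of pair 2, against 7.92 to 7.93 on the others. SNORA75 read 6.62 on that same array, against 6.89 to 6.92.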

How the results depend on the processing

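The count of 88 called members stayed between 73 and 90 over the alternatives (filters, scalings, probe set choice, variance model, covariates, blocks, a stricter threshold and arrays left out in turn, 81 to 89), with 54 to 70 higher and 15 to 25 lower. With the pair as a replicate block it was 85. The main fit used B code and last number as additive terms and did not use the pair as a block. Only 3 of 8 arrays correlated best with their own number. The values by pair and the rule for named members rest on pairs matched by title only. The class medians and the median excess of snoRNA over host (0.13, or 0.12 with 1 value per host or only hosts numbered on their own chromosome, both chosen after seeing the data, and 0.17 with every containing gene) moved by less than the spread between pairs. For the excess this says little, because it ran from 0.02 to 0.35 between pairs of arrays, wider than the excess itself. Members called for the interaction were 4 with a variance trend, adding SNORD74 and SNORD75, and between 0 and 1 with 1 array left out. SNORD14E kept its call in 6 of those 8 cases and SNORD30 in none (adjusted p 0.0640 to 0.271). Of 749 values of named members under alternatives, 734 were counted as unchanged, 10 lost and 5 gained a call and none reversed. Unchanged meant the same direction and side of the threshold. The 734 include exon-level means, which carry no p and were compared by size only. Exon-level values match the gene-level ones, so those entries could hardly change. SCARNA9 (adjusted p = 0.0666) and SNORD14C (0.107) lost theirs without covariates; SNORD32A (0.0392) and SNORD35A (0.0335) fell with quantile normalisation. The cause was not tested. The number of arrays limits the precision.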
